A study of Homo sapiens with 30 samples.

Results

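Of 20046 genes with a single annotated symbol, 99 were detected on every control array and on none of the knockdown arrays of the series. A gene counted as detected on an array when some probe of it had a deposited detection p-value under 0.05, which means that the probe was brighter than nearly all background probes. The rule asked for detection on each of the 6 shControl arrays and on none of the 24 knockdown arrays, and it met 100 genes before KRT23, which the rule names as an exception, was taken out. The 99 stand among 10102 genes detected on all 6 control arrays, of which they are 0.98%. The opposite pattern, detection on all 24 knockdown arrays and no control array, held for 79 genes. The members were thus chosen by the detection p-values themselves, so their control and knockdown levels are given as a description, with no test.

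The RNA came from MCF-10A, a human cell line grown from breast epithelium that does not form tumours. All 30 samples overexpressed cyclin E, the activator of CDK2 that drives entry into S phase, and all expressed a short hairpin RNA (shRNA) stably and were collected after 48 hours of culture. The groups are named by their shRNA, either shControl or 1 of 4 against a checkpoint kinase (shATM, shATR, shCHK1 and shCHK2). As background, ATM and CHK2 respond to DNA breaks, and ATR and CHK1 to stalled replication forks. Each of the 5 shRNAs was present in 2 sets of 3 replicates, and the labels do not say what the sets are, whether replicates were separate cultures, or whether a line was a clone. The p-values below therefore measure the spread between arrays, which may be technical. Controls and knockdowns carried the same cyclin E construct, and cells without it were not analysed here.

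The arrays did not differ in how much they detected in a way that separates the groups, with 19879 to 20936 probes detected per control array and 18984 to 21732 per knockdown array. The dimmest detected probe lay between 113.7 and 129.9 intensity units on control arrays and between 104.2 and 142.3 on knockdown arrays. Replicate 3 of shATR set 2 and replicate 3 of shCHK2 set 1 lay away from the other arrays of their groups in a principal component analysis, and without both arrays the rule gave 105 genes, including all 99. On average ATM, CHEK1 and CHEK2 were lower in their own knockdown. Log2 differences were -0.67 and -0.30 for ATM in sets 1 and 2, -0.38 and -1.18 for CHEK1, and -0.55 and -0.15 for CHEK2. These differences were not tested, and ATM and CHEK2 were each read by 1 of 3 probes. In set 1, control and knockdown arrays overlapped for CHEK1 (570.9 to 669.5 against 518.9 to 699.9) and CHEK2 (247.0 to 309.7 against 216.3 to 317.8). ATR, detected by its compared probe on 13 of 30 arrays, was at 0.65 and 0.03 in the arrays labelled shATR, so it does not check that label. The basal markers KRT5, KRT14, ITGB4 and LAMB3 were detected on all 30 arrays, and their summed intensity was 4570.4 to 8805.9 on control and 6807.4 to 23741.0 on knockdown arrays. The luminal markers summed to 16011.0 to 26205.3 on control and 7177.1 to 13740.7 on knockdown arrays. Of these 6 markers, KRT8, KRT18, ELF3 and EPCAM were detected on all arrays, MUC1 on 6 control and 23 knockdown arrays and KRT19 on 6 and 2. By limma, MUC1 fell, with log2 differences of -6.42 in set 1 and -7.12 in set 2, and so did ELF3 (-3.02 and -3.55). KRT19 (-2.77 and -3.17) and KRT8 (-0.99 and -2.86) fell too, while KRT18 rose (0.52 and 0.83) and EPCAM was not called (0.10 and -0.33). The 5 mesenchymal markers summed to 1562.5 to 1791.7 and 4660.8 to 12609.3. Among them VIM rose by 2.80 and 2.75, and FN1 was detected on 0 control and 16 knockdown arrays. CDH2 and TWIST1 were detected on all 30 arrays and ZEB1 on none. Of 13 tested genes of a longer mesenchymal list 4 rose, 1 fell and 8 were not called, with a median log2 difference of 0.09. Over all genes tested, 21.2% fell and 17.7% rose. The 4 mesothelial markers summed to 7080.9 to 12582.6 and 383.2 to 599.8, and MSLN among them was detected on 6 control arrays and 1 knockdown array. CALB2 was detected on all 30 arrays, WT1 on 3 control and 4 knockdown arrays and UPK3B on 1 and 8. Of 12 tested genes of a longer mesothelial list 5 fell, 2 rose and 5 were not called, with a median log2 difference of -0.08. The 4 leukocyte markers summed to 1507.6 to 2729.7 and 488.2 to 942.6. PTPRC and CD3E were detected on 0 control arrays, while CD14 was detected on all 30 arrays and fell (-3.71 and -2.59), and LYZ was detected on 4 control and 20 knockdown arrays. Of 11 tested genes of a longer leukocyte list 4 fell, none rose and 7 were not called, beside 21.2% of all genes that fell and 17.7% that rose. The median log2 difference of this list was 0.01. Among the 4 that fell were LCP1 (-3.74 and -6.01) and CSF1R (-2.77 and -2.79). The 4 endothelial markers summed to 541.3 to 765.2 and 354.3 to 522.0, with VWF and KDR detected on no array, PECAM1 on 6 control and 4 knockdown arrays and CDH5 on 5 and 0. The 5 fibroblast markers summed to 505.5 to 591.2 and 503.2 to 863.7, with COL3A1 and PDGFRB detected on no array, THY1 on 0 control and 18 knockdown arrays, COL1A1 on 0 and 6 and DCN on 3 and 12. CDKN2A, which MCF-10A is known to have lost, was detected on 0 control and 24 knockdown arrays. The part of these differences in the results below was not tested. In RNA from many cells, fewer cells that express a gene cannot be told apart from less RNA per cell. Over the genes tested, control and knockdown arrays correlated at 0.896 to 0.931, and arrays of control set 1 with those of set 2 at 0.984 to 0.986. The knockdown and any other difference between the control and knockdown lines were not tested apart.

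As background, several members belong to systems with well known parts. CYBA and NOX5 belong to the NADPH oxidases, membrane enzymes that pass electrons to oxygen to make superoxide or hydrogen peroxide. MIR196B and HOTAIR are noncoding genes of the HOX clusters, the gene rows that set position along the body axis, and FHIT spans a fragile site of the genome that breaks under replication stress.

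A microRNA is read by its seed, the bases 2 to 8 at the 5′ end, which pair with target transcripts. MIR196B is the only microRNA gene among the members, and its mature forms are shown with the seed in capitals beside that of its relatives, since the relatives show a different pattern. The sequences are from RefSeq (GRCh38.p14), and hsa-miR-196b-5p lies at chr7:27169528-27169549 on the minus strand.
hsa-miR-196b-5p: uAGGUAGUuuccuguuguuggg
hsa-miR-196b-3p: uCGACAGCacgacacugccuuc
hsa-miR-196a-5p: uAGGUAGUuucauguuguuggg
The 5p form of miR-196b and that of miR-196a share the seed and differ at 1 of 22 bases, C12A counted from the 5′ end of miR-196b-5p. The miR-196a form comes from MIR196A1 on chromosome 17 and MIR196A2 on chromosome 12. The MIR196B probe read 125.0 at the lowest, 143.9 at the median and 164.5 at the highest on control arrays, and 85.7, 103.4 and 121.5 on knockdown arrays, so the groups did not overlap but the control level was close to background. The probes of MIR196A1 and MIR196A2 were detected on none of the 30 arrays. Whether these probes read the precursor or the mature form is not given in the sources used here.

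Promoters are shown for CYBA and TCN1, members with some of the largest differences, and for PPP1R9A and PON3, members of chromosome 7 with no other tested gene between them. Each is the stretch from 250 bases before to 50 bases after the start of the gene in RefSeq (GRCh38.p14), with matches to the motifs searched in capitals. They lie at chr16:88651004-88651303 (CYBA, minus strand), chr11:59866438-59866737 (TCN1, minus strand), chr7:94907344-94907643 (PPP1R9A, plus strand) and chr7:95396326-95396625 (PON3, minus strand).
CYBA: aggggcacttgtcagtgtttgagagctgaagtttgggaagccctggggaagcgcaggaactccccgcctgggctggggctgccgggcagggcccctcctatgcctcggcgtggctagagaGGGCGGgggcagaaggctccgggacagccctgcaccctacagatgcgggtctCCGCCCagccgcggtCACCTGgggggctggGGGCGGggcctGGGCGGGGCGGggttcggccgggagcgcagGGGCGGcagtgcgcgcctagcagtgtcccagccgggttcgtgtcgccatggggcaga
TCN1: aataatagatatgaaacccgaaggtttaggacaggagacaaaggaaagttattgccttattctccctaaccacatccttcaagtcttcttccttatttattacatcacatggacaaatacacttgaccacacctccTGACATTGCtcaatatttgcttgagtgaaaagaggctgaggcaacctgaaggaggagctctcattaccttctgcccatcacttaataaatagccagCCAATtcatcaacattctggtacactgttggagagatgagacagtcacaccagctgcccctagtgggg
PPP1R9A: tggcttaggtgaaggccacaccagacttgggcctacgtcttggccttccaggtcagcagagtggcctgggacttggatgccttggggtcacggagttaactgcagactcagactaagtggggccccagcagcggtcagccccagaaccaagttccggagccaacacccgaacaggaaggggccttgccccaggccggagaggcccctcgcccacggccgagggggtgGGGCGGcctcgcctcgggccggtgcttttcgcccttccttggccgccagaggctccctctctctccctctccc
PON3: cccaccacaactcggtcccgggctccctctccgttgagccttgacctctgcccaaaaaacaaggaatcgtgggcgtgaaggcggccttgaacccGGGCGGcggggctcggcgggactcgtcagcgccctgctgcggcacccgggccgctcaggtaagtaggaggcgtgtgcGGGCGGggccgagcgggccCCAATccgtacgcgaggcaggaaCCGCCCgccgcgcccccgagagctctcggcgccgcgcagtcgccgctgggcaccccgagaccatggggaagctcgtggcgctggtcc
The motifs were searched on both strands, and overlapping matches were kept. GGGCGG, the GC box of SP factors, was found in CYBA, PPP1R9A and PON3 and is present in 44.6% of all 27303 promoters of the table. CCAAT was found in TCN1 and PON3 and is present in 35.7%. TGACNNNGC, the core of the antioxidant response element, was found in TCN1 and is present in 13.6%, and CAGGTG, an E-box bound by ZEB and SNAI factors, was found in CYBA and is present in 20.6%. Not found in these windows were the TATA box TATAAA (present in 12% of all promoters), the AP-1 site TGANTCA (7.76%), the E-box CACGTG (7.44%), the GATA site AGATAA (10.5%), the cyclic AMP site TGACGTCA (1.98%) and the GRHL site AACCNGGTT (0.245%). The TCN1 window has 43% G and C with 1 CG dinucleotide, while that of CYBA has 72.7% with 23 CG dinucleotides, so members with large differences had promoters of both kinds. A comparison over the whole set was void, because only 70 of the 99 members had a promoter in the table.

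Most members were dim genes, and a few were bright ones. The median intensity on control arrays ranged over the members from 131.4 through 169.2 at the median to 6107, against a median of 419.7 for genes detected on all 6 control arrays. Members made up 3.33% of such genes below 150 units, 1.56% between 150 and 300, 0.524% of the next brighter class and 0.154% of the brightest class. On knockdown arrays the median intensity of the members lay between 98.6 and 112.7, so all were within the background there. In 75 members the brightest knockdown array was dimmer than the dimmest control array, while in the other members the ranges overlapped. The rule favours such a separation, and the share over all genes was not counted, so this count is only a description. In the limma fit over all 13721 genes tested, described further below, 38.9% of genes differed between knockdowns and shControl in both sets, 21.2% being lower and 17.7% higher. Because the rule used this contrast, nothing is read from the members' share of it.

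**Figure D1:**
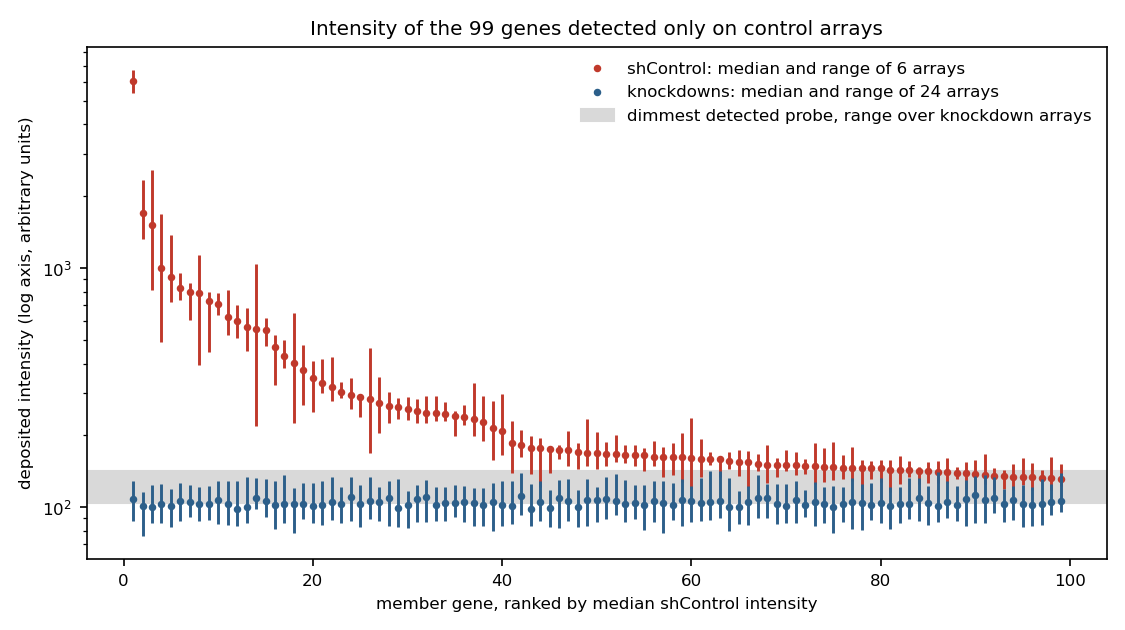
Deposited intensity (log axis) of the 99 genes, ranked by their median on the control arrays, with the median and range over 6 control arrays in red and over 24 knockdown arrays in blue. The grey band is the range over knockdown arrays of the dimmest detected probe, 104.2 to 142.3. Control medians run from 6107 down to 131.4, while knockdown medians all lie between 98.6 and 112.7.

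Since a gene that is not detected has only an upper limit, a fold is given as a lower bound. It sets the mean of the control arrays against a mean in which each knockdown array counts as its own value or as its dimmest detected probe, whichever is higher, on normalized log2 intensities. Levels and bounds are those of a single probe per gene, the brightest on average. Of the members, 23 had several probes, with 32 other probes in all. Of these other probes, 7 were detected on all 6 control arrays, 11 on 1 to 5 and 14 on none. The bound was over 10-fold for 17 members, over 5-fold for 33, over 3-fold for 40 and over 2-fold for 61, and lay between 1.23-fold and 2-fold for 38. Bounds depend on the background correction: without it the median over members was 1.35-fold instead of 2.30-fold, and no bound fell below 1. They also differ between the sets: in 13 members the bound of one set was over 1.5 times below the pooled one, the lowest bound of a set was 1.01-fold, and the median of each member's lower set bound was 1.85-fold.

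CYBA, which encodes p22phox, the membrane subunit that NOX1 to NOX4 need, stood out among the members. Its intensity on control arrays was 5414.8 at the lowest, 6106.7 at the median and 6739.1 at the highest, and on knockdown arrays 88.0, 108.8 and 128.7. CYBA ranked 390 of the 10102 genes detected on all control arrays, and on every knockdown array it was within the background. The bound was at least 207-fold lower (at least 53.6-fold without background correction), and in each set alone it was 216-fold and 198-fold. NOX5, a calcium-activated oxidase that does not need p22phox, read 257.9, 296.1 and 348.6 on control arrays and 87.4, 110.2 and 134.6 on knockdown arrays. Its groups did not overlap, and it was at least 6.58-fold lower.

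The other oxidase genes were read from a list of 16 NADPH oxidase subunits, of which 9 were tested. Of the 7 tested genes that were no members, 2 fell in both sets, 1 rose and 4 were not called, beside 21.2% of all genes that fell and 17.7% that rose. NOXO1, the organizer subunit of NOX1, fell in both sets, with log2 differences of -2.73 and -3.52 (limma, adjusted p = 2.0e-12 and 1.0e-14). NOXA1, its activator subunit, fell too, at -2.30 and -2.05 (adjusted p = 2.1e-15 and 2.6e-14) and was detected on 1 knockdown array, which kept it out of the set. RAC2, a small GTPase of the phagocyte oxidase, rose by 1.53 and 0.47 (adjusted p = 6.4e-16 and 3.1e-06). CYBB, the catalytic partner of p22phox in phagocytes, was detected on 1 control and 0 knockdown arrays, and DUOX2, NOX3 and DUOXA2 on none. The catalytic NOX4 was detected on 0 control and 1 knockdown array, and NOX1 on 2 and 1.

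COX7A1, the heart and muscle form of subunit 7a of cytochrome c oxidase, read 1327.0, 1706.0 and 2334.0 on control arrays and 76.1, 101.4 and 116.3 on knockdown arrays. The brightest knockdown array was at the background, and the bound was at least 57.7-fold lower (at least 15.5-fold without background correction). Of the 12 other tested subunits of that enzyme, 7 fell in both sets, none rose and 5 were not called. Over all genes, 21.2% fell and 17.7% rose. The median log2 difference of these subunits was -0.32, against 0.02 for all genes. COX6B2, a subunit form known from testis, fell, with log2 differences of -2.50 and -3.50 (limma, adjusted p = 3.1e-13 and 2.3e-16) and was detected on 12 of 24 knockdown arrays. The other subunits that fell did so by far less, such as COX4I1 at -0.28 and -0.69 and COX6B1 at -0.73 and -0.63. COX7A2, the form of subunit 7a used in most tissues, fell by little (-0.22 and -0.42) and had a median of 11477.9 on control and 10156.3 on knockdown arrays.

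TCN1, a secreted vitamin B12 binder also called haptocorrin, read 814.8, 1523.0 and 2579.3 on control arrays and 86.5, 100.9 and 123.9 on knockdown arrays. The lowest control array was far above the highest knockdown array, with a bound of at least 47.1-fold (at least 12.9-fold without background correction). CPVL, a serine carboxypeptidase, read 491.4, 1003.6 and 1689.7 against 86.3, 103.3 and 125.5, a bound of at least 27.8-fold (16.04-fold in set 1 and 48.2-fold in set 2). TNFRSF11B, or osteoprotegerin, the secreted decoy receptor for RANKL, read 226.0, 403.8 and 652.0 against 78.3, 103.3 and 120.3, a bound of at least 9.20-fold (19.7-fold and 4.29-fold). All 3 genes had wide control ranges, which the comparison of control sets below takes up. CAPN8, a calpain protease known from the stomach, was at least 11.3-fold lower and had a narrow control range of 381.6 to 499.4. Other secreted members were dimmer: biglycan (BGN), a matrix proteoglycan, at least 5.21-fold lower (12.1-fold in set 1 and 2.24-fold in set 2), CRISPLD2 at least 2.03-fold (1.41-fold and 2.92-fold), and the antagonists SOSTDC1 and IL36RN with bounds of 1.44-fold and 1.49-fold. Carboxypeptidase E (CPE), AMH and PSG9 had bounds of 1.35-fold, 1.31-fold and 1.55-fold, and PSG9 belongs to a family of near copies, so its signal is uncertain.

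**Figure D2:**
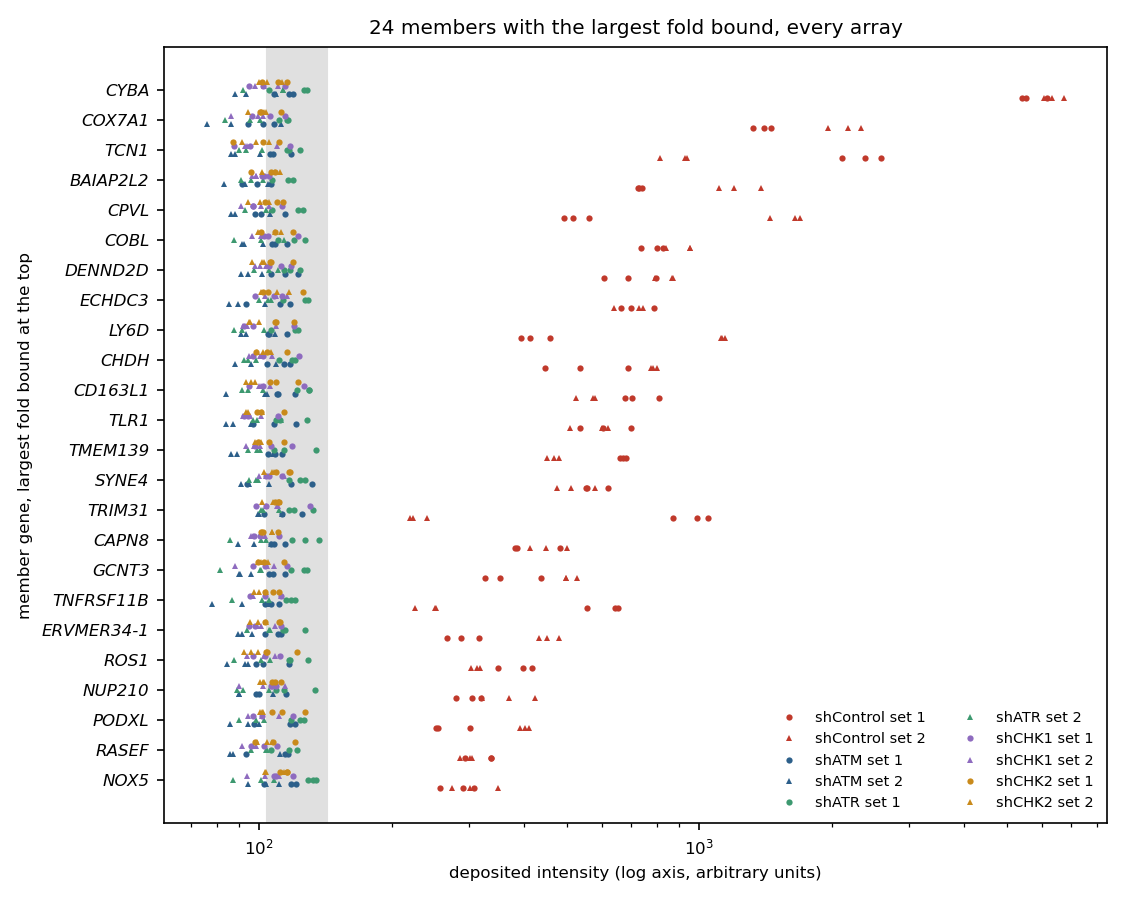
Deposited intensity (log axis) on every array of the 24 members with the largest bound, circles for set 1 and triangles for set 2, red for shControl and other colours for the knockdowns. The grey band is the range over knockdown arrays of the dimmest detected probe. The control arrays of CYBA start at 5414.8 and all its knockdown arrays lie at or below 128.7, while TCN1, CPVL, LY6D, TRIM31 and TNFRSF11B show separate control sets.

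Some members act on membranes, the actin cortex or the nuclear envelope, with bounds from 29.6-fold down to 2.09-fold. BAIAP2L2, an I-BAR protein that bends membranes, read 723.5, 923.3 and 1377.2 on control arrays and 83.0, 101.8 and 119.5 on knockdown arrays, at least 29.6-fold lower. COBL, or cordon-bleu, an actin nucleator of microvilli, read 735.1, 831.7 and 953.2 against 87.5, 105.9 and 126.8, at least 26.1-fold lower. SYNE4, or nesprin-4, which ties the nucleus to kinesin, read 475.3, 554.1 and 619.8 against 90.8, 106.1 and 131.8, at least 15.3-fold lower. In each of these genes all control arrays lay far above the knockdown arrays. BAIAP2L2 was 1.58-fold higher in control set 2 than in set 1 and SYNE4 1.31-fold lower (limma, adjusted p = 7.7e-06 and 0.018). NUP210, a membrane protein of the nuclear pore, was at least 7.85-fold lower, with a control range of 279.3 to 424.2. PPP1R9A, or neurabin, which joins actin to protein phosphatase 1, was at least 4.58-fold lower, with a control range of 199.9 to 253.5. BFSP1, a filament protein of the lens, and ARHGAP26 had bounds of 2.09-fold and 2.16-fold.

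Other members act with small GTPases and in vesicle traffic. DENND2D, an exchange factor for Rab GTPases, read 607.8, 794.1 and 870.4 on control arrays and 90.8, 105.6 and 123.9 on knockdown arrays, at least 23.1-fold lower. RASEF, a Rab-like protein with calcium-binding domains, was at least 7.03-fold lower, with a control range of 285.9 to 335.8. RERG, a Ras-like protein induced by estrogen, and RAB15 had control medians of 239.8 and 235.3 and bounds of 4.80-fold and 4.67-fold. The set bounds of RAB15 were 7.14-fold and 3.05-fold. RAB15 spread more over the control arrays, from 198.6 to 331.1, than RERG, from 220.6 to 268.6.

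Surface receptors and surface proteins made another group. LY6D, a surface protein anchored by lipid, read 392.7, 789.0 and 1140.7 on control arrays and 87.7, 103.6 and 122.3 on knockdown arrays, at least 19.8-fold lower (12.01-fold in set 1 and 32.7-fold in set 2). CD163L1, a scavenger receptor, read 524.9, 628.6 and 809.7 against 84.2, 103.8 and 129.6, with a bound of 18.55-fold. TLR1, which pairs with TLR2 to sense bacterial lipopeptides, read 509.4, 601.1 and 700.6 against 84.0, 98.8 and 128.5, at least 16.9-fold lower. None of these genes overlapped between control and knockdown arrays. ERVMER34-1, an envelope gene of an old retrovirus in the genome, was at least 8.77-fold lower. The receptor tyrosine kinase ROS1 was at least 8.28-fold lower and the sialomucin PODXL at least 7.63-fold lower. Dimmer members of this kind were the immune checkpoint ligand VTCN1 (at least 5.43-fold), the junction protein CXADR (at least 5.06-fold), the netrin receptor UNC5D (at least 1.98-fold) and EPHB6, an Eph receptor without kinase activity (at least 1.92-fold). CHRM3, a muscarinic acetylcholine receptor, had a bound of 2.01-fold, ADGRL3 of 2.17-fold, LRP3 of 5.30-fold and GPIHBP1 of 1.38-fold.

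Metabolic enzymes were spread over the whole range. ECHDC3, a mitochondrial protein of the enoyl-CoA hydratase family, read 639.3, 712.8 and 788.9 on control arrays and 85.2, 107.4 and 129.1 on knockdown arrays, at least 21.2-fold lower. CHDH, the mitochondrial choline dehydrogenase that starts betaine synthesis, read 446.6, 732.6 and 799.9 against 88.2, 103.1 and 123.0, at least 19.2-fold lower. GCNT3, which branches the sugar chains of mucins, read 325.9, 467.5 and 526.0 against 81.3, 102.8 and 128.4, at least 11.2-fold lower. The control arrays of each enzyme lay above all knockdown arrays. BCO1, which cleaves beta-carotene, was at least 5.52-fold lower (8.87-fold in set 1 and 3.44-fold in set 2), OPLAH of the glutathione cycle at least 4.36-fold and ME3, the mitochondrial malic enzyme, at least 3.58-fold. Carnitine acetyltransferase (CRAT), the lactonase PON3, diamine oxidase (AOC1), the thioesterase ACOT4, the oxygen store myoglobin (MB) and tyrosine hydroxylase (TH) had bounds between 2.21-fold and 2.85-fold. KMO of the kynurenine pathway, guanine deaminase (GDA), GPAT2, CES4A, AK9 and DDTL had bounds between 1.46-fold and 1.94-fold. DDTL is nearly a copy of DDT, whose own probe read a median of 4450.8 on control and 4064.1 on knockdown arrays, so the DDTL signal is uncertain. AMY2B, an amylase gene of the pancreas with near copies, had the smallest bound, 1.23-fold, and a probe of AMY2A was detected on 6 control and 2 knockdown arrays. GLB1L2, a beta-galactosidase relative, was at least 5.87-fold lower.

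TRIM31, a RING-type ubiquitin ligase, read 219.6, 556.4 and 1043.9 on control arrays and 98.4, 110.0 and 132.3 on knockdown arrays, at least 11.4-fold lower. TRIM6 of the same family was at least 5.32-fold lower and MINDY4, a deubiquitinase, at least 5.16-fold. TRIM15, a further member of that family, missed the rule by 1 array, since it was detected on 5 control and 0 knockdown arrays. RNF212, a meiotic RING protein, and LONRF3 were dim, with bounds of 2.47-fold and 1.90-fold.

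Gene families that were read as lists held few members, as did all genes with a single annotated symbol, of which the members are 0.494%. Of 395 solute carrier genes with a probe, SLC28A3, a nucleoside transporter, and SLC44A5, a choline transporter relative, were members (0.506%), with bounds of 1.46-fold and 1.73-fold. Of 225 genes named as transmembrane proteins, TMEM139 (control range 450.9 to 680.1) was at least 15.7-fold lower, while TMEM45B and TMEM71 had bounds of 3.57-fold and 2.56-fold. Of 483 genes with a ZNF symbol, 69 protocadherins, 58 cytochromes P450, 51 keratins (KRT23 being left out), 43 collagens, 29 HOX genes and 23 claudins, none was a member, and at the overall share most of these families would hold none or few. The transporter ABCA4, known from the retina, had a bound of 1.80-fold.

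Further signalling members and the noncoding members had control levels close to background. DEPTOR, an inhibitor of mTOR, read 115.4, 138.4 and 158.3 on control arrays and 86.5, 112.7 and 134.8 on knockdown arrays, a bound of 1.38-fold, and its ranges overlapped. FHIT, the gene of the fragile site on chromosome 3, read 125.8, 142.1 and 148.2 against 87.6, 109.8 and 133.3, a bound of 1.46-fold, and its ranges overlapped too. GADD45G, a stress-induced gene, was at least 1.49-fold lower, and the kinases PRKD1, PKN3 and PIK3C2G had bounds of 1.30-fold, 1.80-fold and 1.84-fold. HOTAIR, the long noncoding RNA of the HOXC cluster, read 119.0, 135.0 and 144.1 against 87.1, 103.5 and 120.0, a bound of 1.28-fold. DOCK8-AS1, the antisense RNA of DOCK8, had a bound of 1.48-fold, and DOCK8 itself was detected on 5 control and 0 knockdown arrays. Strand cannot be checked from the table, so the antisense gene and DOCK8 are uncertain. The remaining members included the zinc finger repressor ZBTB7C (2.52-fold), LMCD1 (2.06-fold), annexin A9 (ANXA9, 2.58-fold), PLEKHA6 (5.38-fold), ART3 (4.96-fold), NREP (2.12-fold), MEGF6 (1.94-fold) and APOL6 (1.29-fold). The bounds of CIST1, CPNE4, ELAPOR2, FAM174B, FAM221A, GRAMD1C, PXDNL, LRRC61, MCEMP1, FAM83E, FNDC11 and CMTM1 lay between 1.25-fold and 2.35-fold.

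The members differed in how close they came to detection on a knockdown array. The smallest knockdown detection p-value of a member was 0.0506 at the lowest, 0.106 at the median and 0.400 at the highest. That smallest value fell on an array of shATM set 1 for 27 members, more than on any other group, while the other groups had 7 to 14. The members nearest the threshold on the knockdown side were DEPTOR (0.0506), MB (0.0519) and KMO (0.0532), and MEIG1, MEST and MYRFL were just outside at 0.0481. On the control side DEPTOR (0.0468), ABCA4 (0.0442) and AMY2B (0.0403) were nearest inside, and LINGO2 (0.0506), APOBEC3H and LHX2 (0.0558 each) just outside. Another 65 genes were detected on all control arrays and exactly 1 knockdown array, and 25 genes on 5 control arrays and no knockdown array. The median detection p-value of a member over the 24 knockdown arrays was 0.599, beside 0.622 for the 3992 genes detected on no array. It was over 0.3 in 93 members (93.9%), beside 97.4% of the genes never detected. Both groups were chosen for detection on no knockdown array, so their likeness was partly fixed by the choice and is a description.

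The difference between the shControl sets was not used to choose the members, and it was tested with limma over all genes. Its spread, however, was estimated over all 10 groups. These include the 24 knockdown arrays, on which the rule asked that members be undetected, so the choice can bear on the p-values. In this fit, 55 of the 99 members (55.6%) differed between the control sets at an adjusted p under 0.05, beside 15.3% of all genes. With only the 6 shControl arrays in the fit, the shares were 42.4% of the members and 13.6% of all genes. Among genes detected on all 6 control arrays the share in the fit over all groups was 18.4%. In set 2, 39 members were lower and 16 higher, against 7.18% lower and 8.17% higher over all genes. The median size of the log2 difference was 0.43 over the members and 0.16 over all genes. Of the 55, 34 had control sets that did not overlap in deposited intensity, and 16 differed by over 2-fold. Genes called different are likely to have separate sets, and these counts were not made over all genes, so they are only a description. With arrays of a group treated as a random block, 11 were higher and 28 lower, 39.4% of the members beside 5.15% of all genes.

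TRIM31 had the largest difference, with 872.1, 1043.9 and 985.4 on the set 1 control arrays and 223.3, 240.6 and 219.6 in set 2. It was 8.25-fold lower in set 2 (log2 difference -3.05, SE 0.13, limma, adjusted p = 2.6e-15). BGN read 419.7, 464.6 and 388.0 in set 1 and 174.7, 179.6 and 169.6 in set 2, a 5.08-fold difference (-2.35, SE 0.11, adjusted p = 1.2e-14). The arrays of each set lay close together for both genes, and the sets were far apart. TNFRSF11B read 555.1, 643.3 and 652.0 in set 1 and 250.7, 226.0 and 252.4 in set 2 (-2.11, SE 0.09, adjusted p = 3.8e-15). TCN1 read 2106.8, 2579.3 and 2375.5 in set 1 and 929.3, 814.8 and 939.2 in set 2 (-1.73, SE 0.08, adjusted p = 3.8e-14). For TCN1 the bound against the knockdowns was accordingly 88.6-fold in set 1 and 25-fold in set 2, and for TRIM31 33.8-fold and 3.84-fold. ANXA9 was 3.02-fold lower in set 2 and TMEM45B 2.77-fold lower, again with no overlap between sets, and their bounds were 4.63-fold and 6.14-fold in set 1 and 1.43-fold and 2.08-fold in set 2. The bounds of AOC1 and ABCA4 were 3.85-fold and 2.75-fold in set 1 and 1.43-fold and 1.18-fold in set 2.

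In the other direction, CPVL read 491.4, 562.8 and 517.5 in set 1 and 1689.7, 1444.3 and 1647.7 in set 2, 3.21-fold higher (log2 difference 1.68, SE 0.08, limma, adjusted p = 1.0e-14). LY6D read 392.7, 457.4 and 412.6 in set 1 and 1120.6, 1140.7 and 1124.3 in set 2, 2.91-fold higher (1.54, SE 0.08, adjusted p = 3.0e-13). Both genes had non-overlapping sets, in the opposite order to TRIM31 and TCN1. LMCD1 was 2.74-fold higher in set 2, with bounds of 1.28-fold in set 1 and 3.29-fold in set 2. Also higher in set 2 were CRISPLD2 (2.21-fold), ME3 (1.90-fold) and ERVMER34-1 (1.62-fold). CYBA (-0.03, SE 0.09, adjusted p = 0.89), COBL (0.04, SE 0.10, adjusted p = 0.87) and CAPN8 (-0.03, SE 0.10, adjusted p = 0.89) were not called. Over all genes the median log2 difference was near 0, and over the members it was -0.18.

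**Figure D3:**
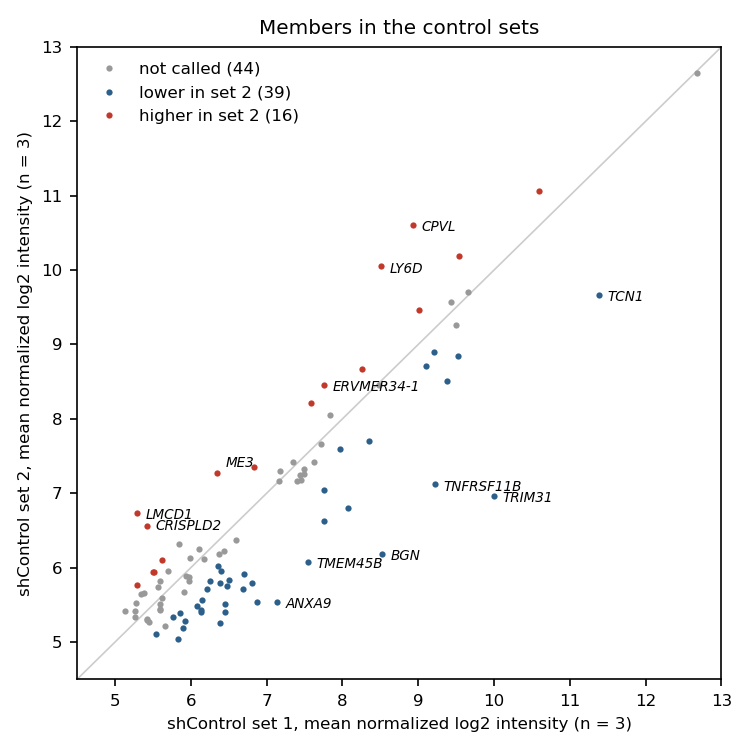
Mean normalized log2 intensity of each member on the 3 shControl arrays of set 1 (horizontal) and of set 2 (vertical), with equality as a line. Of the 99 members, 39 were lower in set 2 (blue), 16 higher (red) and 44 not called (grey), with TRIM31, BGN and TNFRSF11B farthest below the line and CPVL and LY6D farthest above it among bright members.

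The rule can also be applied within a set and the genes then read in the arrays of the other set, which the choice did not use. In set 1 alone, 175 genes were detected on all 3 control arrays and none of the 12 knockdown arrays. Of these, 138 were detected on all 3 control arrays of set 2 and 128 on none of its knockdown arrays, and 99 met both conditions, 56.6%. These 99 are the members, since meeting the rule in both sets is the same as meeting it over all arrays. By limma, 162 of the 175 (92.6%) were lower in the knockdowns of set 2, beside 32.1% of all genes, and none was higher, beside 28.2%. Their median log2 difference in set 2 was -1.30. In set 2 alone 260 genes met the rule, and 99 of these (38.1%) met it in set 1. Of the 260, 226 (86.9%) were lower in the knockdowns of set 1, beside 27.6% of all genes, and 3 (1.15%) were higher, beside 28.1%. The limma calls in both directions came from the fit over all 10 groups. Its spread includes the arrays that chose the genes, so the choice can bear on these calls. At the other extreme, 18 of the 175 were detected on no control array of set 2, and 8 of the 260 were detected on all 12 knockdown arrays of set 1. Each shRNA alone, against the same 6 control arrays, left 203 to 230 genes that it did not detect: 210 for shATM, 203 for the arrays labelled shATR, 230 for shCHK1 and 219 for shCHK2.

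The members lay on most chromosomes, with chromosome 7 holding the most. Of the 99, 14 were on chromosome 7, which is 14.1%, beside 5.02% of the genes detected on all 6 control arrays. They were CPVL, COBL, TMEM139, PODXL, MINDY4, PPP1R9A, PON3, AOC1, ELAPOR2, EPHB6, FAM221A, LRRC61, MIR196B and SOSTDC1. Chromosome 17 held none, although 600 genes there were detected on all control arrays, and chromosome 13 held none of 177. Over all 659 genes of chromosome 7 that were tested, 37.5% were lower in the knockdowns in both sets and 7.74% higher, beside 21.2% and 17.7% of all genes, with a median log2 difference of -0.22 against 0.02. Chromosome 8 held 8 members, 8.08% beside 3.81% of the genes detected on all control arrays, and chromosome 9 held 7. Since chromosome 7 was singled out after its count was seen, these shares are a description.

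**Figure D4:**
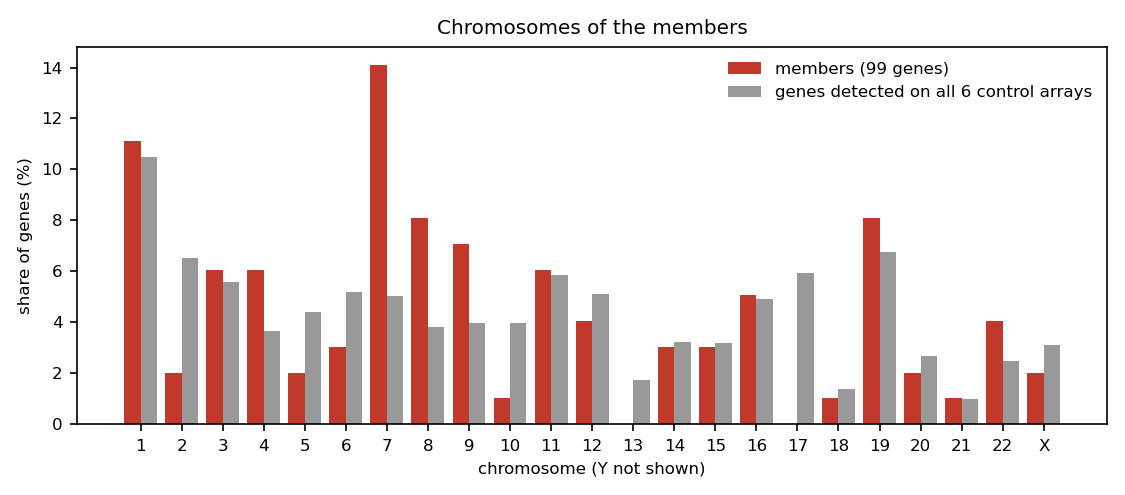
Share of the 99 members (red) and of the genes detected on all 6 control arrays (grey) that lie on each chromosome. Chromosome 7 holds 14.1% of the members against 5.02%, and chromosomes 13 and 17 hold none.

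The genes next to the members, which the rule did not choose, were read in the same fit. The nearest tested gene on each side of every member, called its neighbour, gave 191 genes, and untested genes can lie between. In the knockdowns, 78 of these (40.8%) were lower in both sets and 24 (12.6%) higher, beside 21.2% and 17.7% of all genes, and 89 were not called. Their median log2 difference was -0.19, against 0.02 over all genes. With neighbours on chromosome 7 left out, 65 of 165 (39.4%) were lower and 20 higher, and with median scaling 65 of 191 (34%) were lower, beside 15.7% of all genes.

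Several neighbours belonged to the same gene group as the member beside them. TLR6, the paralog next to TLR1, fell by a mean log2 difference of 3.63 over the sets, and its compared probe read a median of 393.8 on control and 112.0 on knockdown arrays. HOXC13, next to HOTAIR, fell by 1.99, while HOXA2, next to MIR196B, rose by 1.26 (limma, adjusted p = 3.7e-06 in set 1 and 1.9e-14 in set 2). HOXC13 and HOXA2, which are neighbours only among the tested genes, thus differed in opposite directions. HOXC11, on the other side of HOTAIR, fell by 0.43, and HOTTIP, on the other side of MIR196B, was not called. PEG10, an imprinted gene next to PPP1R9A, fell by 2.05, from a median of 1091.4 on control to 371.8 on knockdown arrays. IL36G, a cytokine that IL36RN opposes, is its neighbour among the tested genes and rose by 2.80, from detection on 0 control arrays to all 24 knockdown arrays. IL1RN, the receptor antagonist on the other side of IL36RN, fell (-0.59 in set 1 and -3.58 in set 2). TRIM22, next to TRIM6, fell by 1.35, ACOT2, next to ACOT4, by 1.06 and PON2, next to PON3, by 1.05. CMTM4 next to CMTM1, TRIM15 next to TRIM31, CES2 next to CES4A and DDT next to DDTL were also lower in both sets. PSG4 next to PSG9, CAPN2 next to CAPN8, CD163 next to CD163L1 and TRIM5 next to TRIM6 were not called. TRIM5 rose in set 1 (0.91) and fell in set 2 (-0.28).

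Neighbours of other kinds changed too. ATP6V0E2, a subunit of the proton pump of vesicles, next to LRRC61, fell by 4.48, and LYPD3, a surface protein of squamous epithelium next to PSG9, fell by 4.10. PTK6, a kinase of epithelial cells next to FNDC11, fell by 3.70, SULT2B1, a sulfotransferase next to FAM83E, by 3.12, and CXCL10, a chemokine next to ART3, by 2.99. IL17RB, next to CHDH, and TLR5, next to CAPN8, were each detected on all 6 control arrays and 1 knockdown array. SNAI2, a repressor of epithelial genes that lies next to PXDNL, rose by 5.35, with detection on 5 control and all 24 knockdown arrays. PRSS2, next to EPHB6, rose by 2.75 and PRSS23, next to ME3, by 2.02. PROSER2, next to ECHDC3, rose by 1.61, LINC01139, next to CHRM3, by 1.403 and PTPRG, next to FHIT, by 1.23. Members had no other tested gene between them in 3 pairs, CHRM3 with KMO on chromosome 1, MB with APOL6 on chromosome 22 and PPP1R9A with PON3 on chromosome 7. PPP1R9A was not called between the control sets (means of 7.17 in both, on the log2 scale), while PON3 was 2.03-fold lower in set 2 (limma, adjusted p = 5.8e-07).

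**Figure D5:**
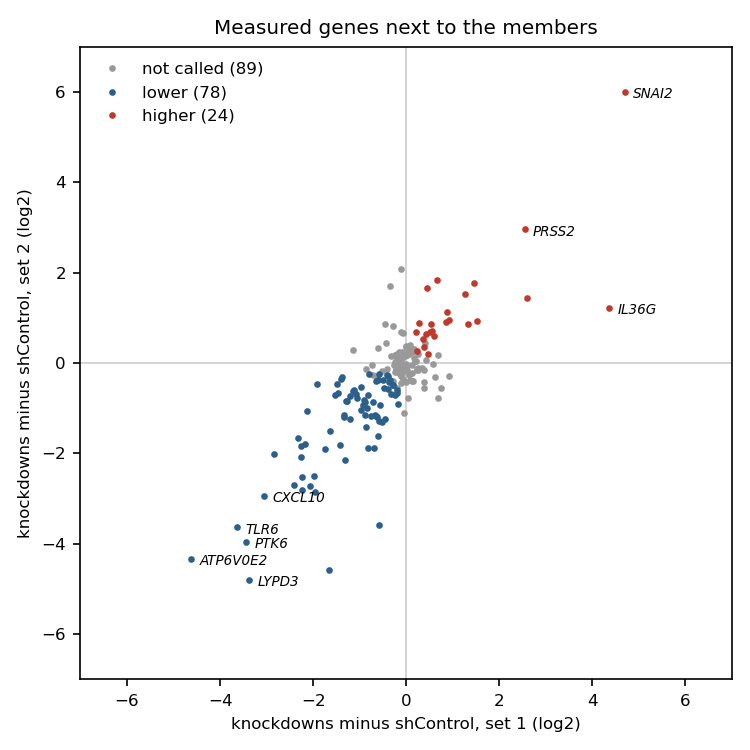
Log2 difference between knockdowns and shControl in set 1 (horizontal) and set 2 (vertical) for the 191 tested genes next to the members. Lower in both sets (blue) were 78 genes, led by ATP6V0E2 and LYPD3, higher in both (red) were 24, led by SNAI2, and 89 were not called (grey).

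Lists of epithelial, imprinted, HOX and germ line genes were read in the same fit, beside 21.2% of all genes that fell and 17.7% that rose. Of 21 tested luminal genes none was a member, and 12 fell and 1 rose in both sets, with a median log2 difference of -1.30. Of 21 keratinocyte differentiation genes 11 fell and none rose, with a median of -1.30, and none was a member either. Of 14 claudins 7 fell and none rose. Of 15 tested basal epithelial genes 4 fell, 4 rose and 7 were not called, with a median of 0.04. Of 22 tested keratins 7 fell, 4 rose and 11 were not called, with a median of -0.002. Of 22 imprinted genes other than PPP1R9A, 6 fell, including MEST, which was detected on 1 knockdown array and so missed the rule, and 4 rose. Among those that rose, SNRPN went from a median of 104.7 on control to 629.8 on knockdown arrays and PLAGL1 from 117.9 to 249.3. Of 15 HOX genes 6 rose and 3 fell, with HOXB7 and HOXC4 detected on 0 control and all 24 knockdown arrays. Of 9 tested testis and germ line genes none was called in either direction.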

How the data were processed

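RNA of 30 samples was measured on bead arrays with biotin-labelled RNA, per the labels. The deposited table without normalization gives a linear intensity and a detection p-value per probe and array, per the file headers. The authors also deposited quantile-normalized log2 values, used here as an alternative. The scanner software, its settings and the chip version are not given in the sources used here. Of 47231 probes, 30113 had a single gene symbol in the platform annotation, 8 had several and 17110 had none, and the last 2 kinds were not used. The members and lists were chosen with earlier results of these data known.

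In R 4.3.3, limma (version 3.58.1) with its function neqc corrected the background and normalized the arrays by quantiles. Its offset was 16, and the level of negative controls was estimated from detection p-values. Probes detected on at least 3 arrays were kept (26967), and each gene was read by the brightest such probe on average, which gave 13721 genes. A model with a mean for each of 10 groups of 3 arrays was fitted with lmFit and eBayes (20 residual degrees of freedom), with two-sided p-values adjusted by Benjamini-Hochberg over all genes. A gene was called between knockdowns and shControl when the mean of the 4 knockdowns differed at an adjusted p under 0.05, in the same direction in both sets. The pipeline was tested on simulated data. Neighbours and chromosomes come from the gene order of RefSeq (GRCh38.p14), and no coordinates of the arrays' own annotation were used. The number of arrays limits the precision.

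The named genes are the 24 members with the largest bound, members of the lists, up to 6 members per direction with the largest called difference between control sets, adjacent members, and the 3 genes nearest the threshold on each side. Further members are named by role and were chosen after their values were seen. Replicate numbers are shared by all groups. The deviations of same-numbered control arrays from their group means correlated at -0.01, -0.02 and 0.00 between the sets. Over all pairs of groups these correlations ran from -0.05 to 0.24 for replicate 1, -0.04 to 0.17 for replicate 2 and -0.06 to 0.48 for replicate 3. Since not every pair was over 0.1, the numbers were not taken as pairs. Alternatives covered the detection threshold, the probe rule, the scaling, the filter, blocks and each array left out.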

Additional observations from a re-analysis of the deposited data

How the results depend on the processing

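Membership depends on the detection threshold. At a detection p under 0.01 the rule gave 183 genes, 75 of them among the 99, and at 0.10 it gave 60, of which 52 were among the 99. A stricter threshold makes detection harder on the control arrays and absence easier on the knockdown arrays. With up to 1 knockdown array allowed, 162 genes met the rule, including all 99 by construction, and with only the brightest probe of each gene 110 did, sharing 97. At 0.01, 66.1% instead of 56.6% of the genes chosen in set 1 met the rule in set 2, and 44.7% instead of 38.1% in the other direction. Leaving out each array in turn gave 99 to 105 members, 2707 to 2958 genes lower and 2252 to 2505 higher in the knockdowns, 33 to 39 members lower and 13 to 17 higher between control sets, and 1650 to 2265 genes called between control sets.

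With only the 6 shControl arrays in the fit, 10 instead of 16 members were higher in control set 2 and 32 instead of 39 lower. That is 42.4% instead of 55.6% of the members, beside 13.6% instead of 15.3% of all genes. With arrays of a group as a random block, an alternative added after seeing the data, 706 instead of 2106 genes were called between control sets. A replicate block, for numbers that do not pair the arrays, gave 2142, with 16 members higher and 39 lower. The 12 members named between control sets kept direction and call in all 456 repeats. Bounds are the values that depend most on the correction: for CYBA 53.6-fold without background correction, 52.6-fold from the authors' log2 values and 187-fold with median scaling. The share of knockdown calls that were higher moved from 45.6% to 54.9% with median scaling. Dim members, within the range of the dimmest detected probe, have levels that the background limits.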
